A study of Mus musculus with 6 samples.

Results

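The Dlk1-Dio3 domain on mouse chromosome 12 was described in wild-type (WT) and SIRT1 knockout (KO) mouse embryonic stem cells (mESCs) through 10 genes. They were chosen by name with this contrast in view, as 6 genes of the domain (Dlk1, Meg3, Rtl1, Rian, Mirg and Dio3) and 4 genes beside it (Wars, Wdr25, Begain and Ppp2r5c). All 10 had a row among the 54352 rows of the expression table, and all 10 passed the filter on low values, a mean over the libraries of at least 10 normalized counts, among 26571 tested genes. Because the genes were selected on the difference between the genotypes, their own differences are given as values without a test.

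RNA came from 3 WT and 3 SIRT1 KO libraries of mESCs grown in serum-free ESGRO medium, labelled as male cells of the 129Sv/J background. SIRT1 is an NAD-dependent protein deacetylase. In earlier experiments of the study the KO cells came from the R1 mESC line by gene targeting, and each genotype is read here as 1 cell line, so that a difference between the lines and a difference of genotype cannot be told apart. Values are log2 normalized counts, and n = 3 libraries for every mean and SD.

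Imprinted genes are expressed mainly from the chromosome inherited from 1 parent. In the Dlk1-Dio3 domain the protein-coding genes Dlk1, Rtl1 and Dio3 are expressed from the paternal chromosome, and Meg3, Rian and Mirg are noncoding RNAs of the maternal chromosome that carry many microRNAs and C/D box small nucleolar RNAs (snoRNAs). A region upstream of Meg3 that is methylated on the paternal chromosome controls both sets, and the maternal transcripts are known to be silent in some lines of mouse pluripotent stem cells.

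The start of Meg3 is shown because Meg3 is the first of the genes that were nearly lost in SIRT1 KO mESCs, and the start of Dlk1 is shown beside it as a gene of the same domain that was at a low level in both genotypes. The sequences are RefSeq windows of 300 bases on GRCm38.p6, from 250 bases before to 50 bases after the gene start. The Meg3 window lies at chr12:109540746-109541045 and the Dlk1 window at chr12:109452573-109452872, both on the plus strand. Capitals mark 3 short motifs searched on both strands, namely TGCCGC, TGACGTCA and TATAAA, which are the letters bound by ZFP57, by CREB proteins and by the TATA-binding protein.
Meg3 promoter: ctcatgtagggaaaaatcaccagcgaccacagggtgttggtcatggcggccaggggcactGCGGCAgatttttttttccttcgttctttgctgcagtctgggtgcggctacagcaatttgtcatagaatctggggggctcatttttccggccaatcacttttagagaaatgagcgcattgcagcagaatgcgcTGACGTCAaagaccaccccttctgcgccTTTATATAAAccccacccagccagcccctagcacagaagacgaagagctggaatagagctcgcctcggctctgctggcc
Dlk1 promoter: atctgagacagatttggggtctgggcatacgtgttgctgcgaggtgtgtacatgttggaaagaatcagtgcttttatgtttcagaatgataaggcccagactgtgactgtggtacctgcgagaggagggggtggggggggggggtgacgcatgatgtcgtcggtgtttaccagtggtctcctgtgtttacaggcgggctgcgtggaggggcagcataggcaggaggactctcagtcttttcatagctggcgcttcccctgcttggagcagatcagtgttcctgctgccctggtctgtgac
The Meg3 window held TGCCGC once, on the minus strand 190 bases before the start, TGACGTCA once, 57 bases before the start, and TATAAA once on each strand, at 25 and 29 bases before the start, where the 2 matches overlap each other. The Dlk1 window held none of the 3. Of all 32851 promoter windows of this length, 11.6% held TGCCGC, 1.79% held TGACGTCA and 13.6% held TATAAA. The Meg3 window held 13 CpG dinucleotides and the Dlk1 window 9, against a median of 7 over all windows. The table held windows for 7 of the 10 genes, and those for Wars, Wdr25 and Rtl1 were not used here.

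Rtl1 lies opposite microRNA hairpins of the maternal transcript, and these are shown because they tie its row to the noncoding strand. Of 114 mature microRNA sequences that RefSeq places between Wars and Ppp2r5c, 11 from 6 hairpin genes were complementary over their whole length to an annotated Rtl1 transcript. For 6 of these, 1 for each hairpin gene, capitals mark the seed, bases 2 to 8, which pairs with target RNAs.
miR-431-5p: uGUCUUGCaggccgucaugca
miR-433-3p: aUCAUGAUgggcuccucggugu
miR-127-3p: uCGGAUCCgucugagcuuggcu
miR-434-3p: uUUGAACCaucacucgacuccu
miR-432: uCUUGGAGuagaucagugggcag
miR-136-5p: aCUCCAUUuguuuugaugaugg
The rows of Mir431, Mir433, Mir127, Mir434, Mir432 and Mir136 were at 0 in all 6 libraries. Across the genome, 98.45% of the 453 genes whose exons are wholly covered by exons of the other strand alone were at 0 in every library, against 33.48% of the 42206 genes with no exonic overlap. Genes wholly covered on their own strand were at 0 nearly as often, at 98.9% of 636. Zeros of this kind arise where reads that touch more than 1 gene are dropped and the strands are not separated, so the Rtl1 row can hold reads of the antisense transcript.

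Meg3, a noncoding RNA and the first gene of the maternal transcription, lies on the plus strand from 109541001 to 109571726. It was at 15.30, 15.53 and 15.30 in the WT libraries and at 7.76, 7.55 and 7.57 in the SIRT1 KO libraries. All WT values lay far above all KO values, and the libraries of each genotype lay close together. The mean was 15.37 ± 0.13 in WT and 7.63 ± 0.12 in KO libraries (SD), a log2 difference of -7.75 (SE 0.090). The deposited KO level was 0.465% of the WT level. In bulk RNA, fewer cells expressing a gene and less RNA per cell cannot be told apart.

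Rtl1, a retrotransposon-derived gene that serves the placenta and muscle, lies on the minus strand from 109589193 to 109600330. It was at 15.50, 15.57 and 15.57 across the WT libraries, against 7.76, 7.35 and 7.82 across the KO libraries. The groups stood as far apart as for Meg3, with the second KO library below the other KO libraries. Its log2 difference was -7.90 (SE 0.115), a level 240 times lower.

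Rian, the host of a large array of C/D box snoRNAs, lies on the plus strand from 109603940 to 109661716. Its WT values of 17.13, 17.22 and 17.15 were the highest of the 10 genes, and its SIRT1 KO values were 9.15, 8.87 and 8.75. The log2 difference of -8.24 (SE 0.096) was the most negative among all 26571 tested genes, and the deposited KO level was 0.330% of the WT level.

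Mirg, the host of a microRNA array, lies on the plus strand from 109729764 to 109749460. It was at 15.53, 15.54 and 15.55 across the WT libraries, against 8.10, 7.72 and 7.85 across the KO libraries. The WT libraries were nearly equal, and the KO libraries were spread more widely but far below them. The log2 difference was -7.65 (SE 0.095), a level 201 times lower. Rian, Rtl1, Meg3 and Mirg, in this order, held the 4 most negative differences of all tested genes, a rank by the same values that they were chosen on.

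**Figure D1:**
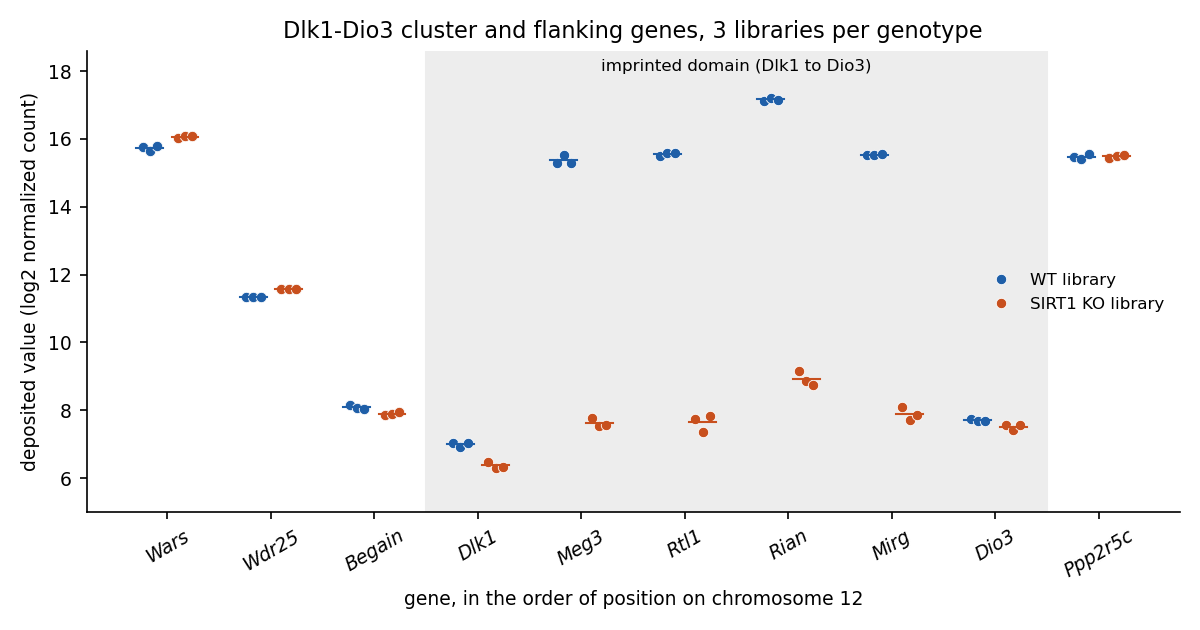
Deposited log2 normalized counts (vertical axis) of the 10 genes in the order of their position, with 1 point for each of the 3 WT and 3 SIRT1 KO libraries and a bar for the mean. Meg3, Rtl1, Rian and Mirg lie above 15 in WT and below 9.2 in SIRT1 KO libraries. The deposited values of the other 6 genes differ far less between the genotypes, with Dlk1 at -0.62 the most. At the low levels of Dlk1, Dio3 and Begain such differences can understate a change.

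The other paternally expressed genes of the domain were at a low level in both genotypes. Dlk1, a transmembrane relative of the Notch ligands, was at 7.03, 6.93 and 7.03 across the WT libraries, against 6.49, 6.31 and 6.33 across the KO libraries. The genotypes did not overlap, and the log2 difference was -0.62 (SE 0.074). It was -0.32 on the log2(value + 100) scale. Dio3, which encodes the deiodinase that inactivates thyroid hormone, was at 7.73, 7.67 and 7.69 across the WT libraries, against 7.55, 7.43 and 7.56 across the KO libraries. The values did not overlap but lay close, at a difference of -0.18 (SE 0.075). Deposited values at such low levels are drawn together between libraries, so the differences of Dlk1 and Dio3 can understate a fall in RNA.

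The deposited values of the flanking genes differed little between the genotypes. Wars, the cytosolic tryptophanyl-tRNA synthetase, was at 15.76, 15.65 and 15.79 across the WT libraries, against 16.04, 16.08 and 16.09 across the KO libraries. Every KO library was higher, by a mean log2 difference of 0.34 (SE 0.053). Wdr25, a WD repeat gene, was at 11.33, 11.33 and 11.34 across the WT libraries, against 11.58, 11.57 and 11.58 across the KO libraries, a difference of 0.24 (SE 0.057) with every KO library higher. Begain, which encodes a protein of the postsynaptic density, was at 8.16, 8.06 and 8.05 across the WT libraries, against 7.85, 7.89 and 7.95 across the KO libraries, a difference of -0.19 (SE 0.077) with every KO library lower. Ppp2r5c, a regulatory subunit of protein phosphatase 2A (PP2A), was at 15.47, 15.42 and 15.54 across the WT libraries, against 15.44, 15.49 and 15.52 across the KO libraries. It was the only gene of the 10 whose genotypes overlapped, at a difference of 0.0053 (SE 0.052).

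In 9 of the 10 genes the genotypes did not overlap, 7 lower and 2 higher in SIRT1 KO mESCs, which was also so for 44.7% of all tested genes. Under quantile normalization of the libraries the differences of Begain and Dio3 were each -0.10. The SD of Rtl1, Rian and Mirg was at most 0.047 in WT and at least 0.196 in SIRT1 KO mESCs, and that of Meg3 was 0.13 in WT and 0.12 in SIRT1 KO mESCs. Among the KO libraries, Meg3, Rian, Mirg and Dlk1 were highest in the first and Rtl1 in the third.

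Levels per kilobase of exon put the genes on a common scale. In WT mESCs the order of log2 levels per kb was Wars at 13.95, Rian at 12.98, Rtl1 at 12.88, Mirg at 12.67, Ppp2r5c at 12.43, Meg3 at 11.20, Wdr25 at 9.07, Dio3 at 6.68, Begain at 5.95 and Dlk1 at 4.50. No neighbours in this order overlapped between their libraries. Rian stood at the 87.5 percentile of 25122 ranked genes, Meg3 at the 72.2 percentile and Dlk1 at the 15.3 percentile.

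In SIRT1 KO mESCs the order of levels per kb was different. Wars at 14.29, Ppp2r5c at 12.43 and Wdr25 at 9.32 led, followed by Dio3 at 6.49 and Begain at 5.76. Mirg at 5.02, Rtl1 at 4.97 and Rian at 4.73 came next, and Mirg overlapped Rtl1 and Rtl1 overlapped Rian between libraries. Dlk1 at 3.87 and Meg3 at 3.45 were lowest, Meg3 at the 8.21 percentile. Deposited values of genes with few reads are drawn together between libraries before the division by exon length. The order of the lowest genes and their percentiles, in either genotype, can therefore depart from the order of their RNA levels. Reads on the 6.79% of Meg3 exon bases and the 8.12% of Rtl1 exon bases covered by a gene of the other strand can be missing from their rows. Meg3, Rtl1, Rian and Mirg also share exon bases with genes of their own strand, where reads can be missing likewise.

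The genes between the described ones were then taken by position, from 108860030 to 110583062 on GRCm38. The annotation held 123 further genes there, of which 42 were at 0 in every library, 32 of them with exons wholly covered by another gene. Another 9 were too low to test, 2 had a name shared with other genes, and 70 were tested. These genes lie in or beside the same transcripts as Meg3, Rian and Mirg and so are no independent replication of them. Of the 70, 54 were called lower in SIRT1 KO cells, with 0 called higher (limma, adjusted p under 0.01, with 62 lower and 1 higher at an unadjusted p under 0.05). Of all tested genes, 8.12% were called lower and 8.47% higher, that is 2157 and 2251 genes. These counts were 1283 and 1206 without the second SIRT1 KO library and 1331 and 1202 without the third, and 1413 were lower without the third WT library. Centring each library on its median gave 1718 lower and 3099 higher genes.

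The lower genes among these 70 were confined to a stretch that began 47.5 kb before Meg3 and ended within Mirg. Between the start of Meg3 and the end of Mirg, 53 of 60 were lower, 36 of 43 microRNA genes, 14 of 14 other small RNA genes and 3 of 3 long noncoding genes. Before Meg3, 1 of 5 was lower, which was Gm34081, and beyond Mirg, 0 of 5 were lower or higher in limma (1 lower and 1 higher at an unadjusted p under 0.05). From Meg3 to Mirg, the 3 tested genes of the minus strand, Gm25750, Gm25252 and Gm44322, named after their values were seen, were lower, as were 50 of 57 of the plus strand. These 3 genes lie opposite Mir380, Mir376a and Mir539, so their rows can hold reads of the plus-strand transcript. Whether RNA of the minus strand fell cannot be told from them. Of the 53 lower genes from Meg3 to Mirg, 47 were highest among the KO libraries in the third, 5 in the second and 1 in the first. In rows such as Mir370, at 4.1305, 4.1303 and 4.1314, the KO libraries differed by very little. The order therefore does not show more RNA of the domain in the third.

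**Figure D2:**
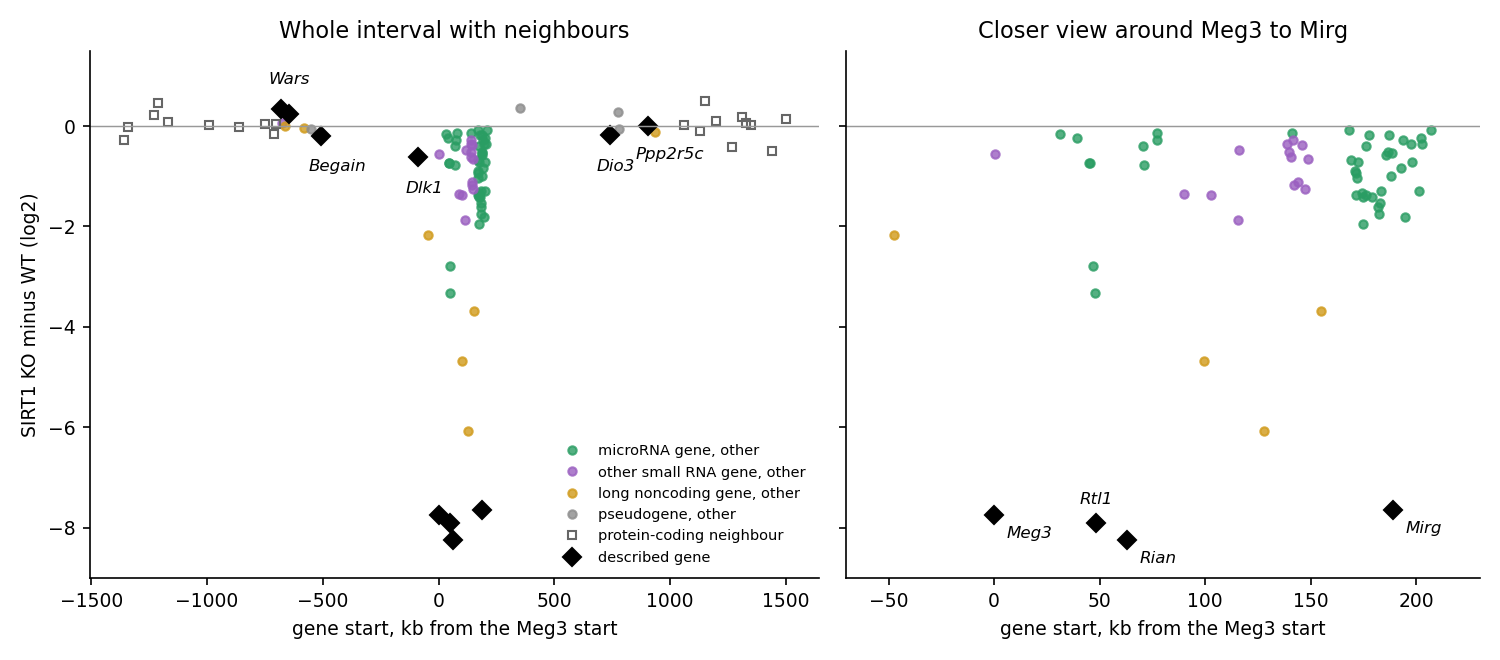
Log2 difference, SIRT1 KO minus WT (vertical axis), of the 10 described genes, the 70 other tested genes of the interval and 20 protein-coding neighbours, by the distance of the gene start from the Meg3 start in kb. Rian sits lowest at -8.24, and the other genes of the interval called lower sit from 47.5 kb before Meg3 to Mirg. Outside that stretch Dlk1 sits at -0.62, and the neighbours include Ankrd9 at -0.50 and Hsp90aa1 at 0.50.

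Among the other genes with the highest means, Gm37899, an unclassified transcript just beyond Rian, was at 12.62, 13.21 and 12.69 across the WT libraries, against 6.79, 6.64 and 6.87 across the KO libraries. Its values did not overlap, and its log2 difference was -6.07 (SE 0.150, adjusted p = 5.77e-08, limma). The long noncoding genes Gm26945, which lies within Rian, and B830012L14Rik, between Rian and Mirg, were at -4.67 and -3.68 (adjusted p = 2e-08 and 5.82e-06, limma). Gm34081, on the minus strand between Dlk1 and Meg3, was at 8.69, 8.79 and 8.57 across the WT libraries, against 6.51, 6.50 and 6.54 across the KO libraries, and fell by 2.17 (adjusted p = 7.55e-07, limma).

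Of the small RNA genes, Mir3070b fell by 3.33 and Mir3070a fell by 2.80 in log2 units (adjusted p = 4.68e-08 and 1.29e-07, limma). Mir1193 fell by 1.95, the snoRNA gene DQ267102 fell by 1.88 and Mir453 fell by 1.82 (adjusted p at most 2.46e-06, limma). On the log2(value + 100) scale Gm34081, Mir1193, DQ267102 and Mir453 were at -1.42, -1.24, -1.19 and -1.14, all still called. A row of a hairpin gene counts fragments of the long transcript that overlap the hairpin, not mature microRNAs. The pseudogenes Gm3379 and Gm6988, which can share reads with their parent genes, were at differences of 0.35 and 0.28 and were not called (adjusted p = 0.0131 and 0.475, limma). Gm3379 was called higher under median centring and without the first or the second WT library (adjusted p = 0.00534, 0.00524 and 0.00384, limma), and Gm6988 without the first (adjusted p = 0.00934, limma). Gm19605, which overlaps Ppp2r5c, was at -0.13 and was not called (adjusted p = 0.346, limma).

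The size of the log2 difference followed the WT level. The 10 genes from Meg3 to Mirg with a WT mean of at least 8 ended between 6.46 and 6.77 in SIRT1 KO mESCs, whatever their WT level up to 12.84, at a median difference of -2.37. The 32 with a WT mean from 6 to 8 were all called lower, at a median of -0.92, and of the 18 below 6, 11 were called lower at a median of -0.25. Deposited values of genes with few reads are drawn together between libraries, so that the differences of the small RNA genes understate their fall and cannot be ranked against each other. The KO SD of such rows was small too, at 0.00057 for Mir370 and 0.00096 for Mir412. Their p-values thus rest on a KO spread that was itself drawn together. The SIRT1 KO means of Meg3, Rtl1, Mirg and Rian, 7.63, 7.64, 7.89 and 8.92, lay above the 6.46 to 6.77 of the 10 genes. That level was not common to all rows. KO means were 5.58 to 6.46 at WT means from 6 to 8, and 3.42 to 5.39 below 6. The level for rows with WT means above 15 is not known. The KO percentages of WT given for Meg3 and Rian can therefore overstate the RNA that remained, which was not tested.

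**Figure D3:**
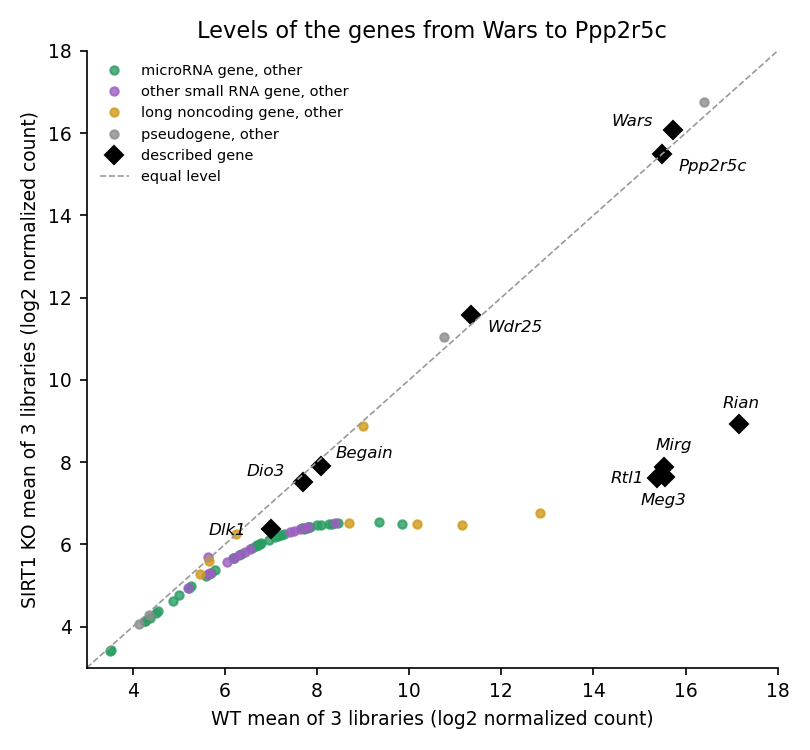
Mean log2 normalized count in 3 SIRT1 KO libraries (vertical axis) against the mean in 3 WT libraries (horizontal axis) for the 10 described genes and the 70 other tested genes of the interval, with a dashed line of equal levels. The other genes from Meg3 to Mirg bend away from the line, to KO values of 6.46 to 6.77 where the WT mean was at least 8. Meg3, Rtl1, Rian and Mirg sit far to the right.

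The microRNAs of the interval had 104 distinct seeds, and 10 seeds were shared by more than 1 hairpin gene. The sequences below are from the Mir3070, Mir1193 and Mir453 genes whose values were given, with a seed partner each for miR-1193-5p and miR-453, and the seed is in capitals.
miR-3070-5p: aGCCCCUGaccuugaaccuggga
miR-3070-3p: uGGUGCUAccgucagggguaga
miR-3070-2-3p: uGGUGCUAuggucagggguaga
miR-1193-5p: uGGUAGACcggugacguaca
miR-379-5p: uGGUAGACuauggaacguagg
miR-453: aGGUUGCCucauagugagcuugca
miR-496a-5p: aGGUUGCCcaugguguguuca
Mir3070a and Mir3070b give the same 5p sequence and share the 3p seed GGUGCUA. miR-1193-5p shares the seed GGUAGAC with miR-379-5p, and miR-453 shares GGUUGCC with miR-496a-5p. The Mir496a row was lower too, at -0.71, while Mir379, at -0.088 from a WT mean of 3.52, was not called (adjusted p = 6.52e-05 and 0.105, limma). The other arm, miR-1193-3p, shares the seed AGGUCAC with miR-370-5p. The Mir370 row was lower, at -0.14 from a WT mean of 4.28 (adjusted p = 0.00835, limma). These 3 genes were named for their seeds, after their values were seen.

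Outside the interval, 10 tested protein-coding neighbours per side, taken by distance, showed no common direction. Of the 20, 2 were lower and 2 higher, against 8.12% and 8.47% of all tested genes, at a median difference of 0.03. The nearest on the Wars side, Slc25a47, was at a difference of 0.049 and the nearest on the Ppp2r5c side, Dync1h1, a dynein heavy chain gene, at 0.028 (adjusted p = 0.764 and 0.863, limma). Cyp46a1, a brain cholesterol hydroxylase gene, and Hsp90aa1, a chaperone gene, were higher by 0.46 and 0.50 (adjusted p = 0.00148 and 0.00178, limma), Cyp46a1 by 0.24 on the log2(value + 100) scale. Mok fell by 0.42 and Ankrd9 fell by 0.50 (adjusted p = 0.00154 and 0.000321, limma). Hsp90aa1 was not called without the second or the third SIRT1 KO library (adjusted p = 0.0161 and 0.0158, limma; over all alternatives from 5.22e-05 to 0.0561).

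Of 23 regulators of imprints and their methylation, all tested, 4 were lower and 3 higher, and 16 were not called. The shares over all tested genes were 8.12% lower and 8.47% higher. The median difference of the regulators was -0.10, against -0.0096 over all tested genes. Dnmt3a, a de novo DNA methyltransferase, was at 14.00 in SIRT1 KO against 15.20 in WT mESCs and fell by 1.20 (adjusted p = 4.53e-06, limma). Dnmt3l, its catalytically inactive cofactor, rose by 0.84 and Dnmt3b, the other de novo enzyme, by 0.61 (adjusted p = 1.5e-05 and 2.97e-05, limma). Aff3, which encodes a nuclear protein known to bind at the methylated control region of this domain in mouse cells, fell by 1.13 (adjusted p = 6.71e-05, limma). Dppa3, an oocyte factor that protects imprints in the early embryo, was low in both genotypes and fell by 0.62 (adjusted p = 0.000386, limma; -0.40 on the log2(value + 100) scale).

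The genes for proteins that keep methylation at imprints were at smaller differences. Zfp57, a zinc finger protein that binds methylated control regions, was at a difference of -0.19 (adjusted p = 0.0199, limma), and Trim28, its corepressor, at 0.043 (adjusted p = 0.643, limma). Uhrf1, which recruits the maintenance enzyme, was at 0.13 and Ezh2, a histone methyltransferase, at -0.19 (adjusted p = 0.127 and 0.153, limma). Dnmt1, the maintenance methyltransferase, was higher by 0.24 (adjusted p = 0.00674, limma), but not once replicate numbers entered as a block (adjusted p = 0.0185, limma), nor without the first WT library or any 1 KO library (over all alternatives from 0.00136 to 0.0449), and it was at 0.13 under quantile normalization. Without the second WT library 8 regulators were lower, Zfp57 among them (adjusted p = 0.00658, limma).

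**Figure D4:**
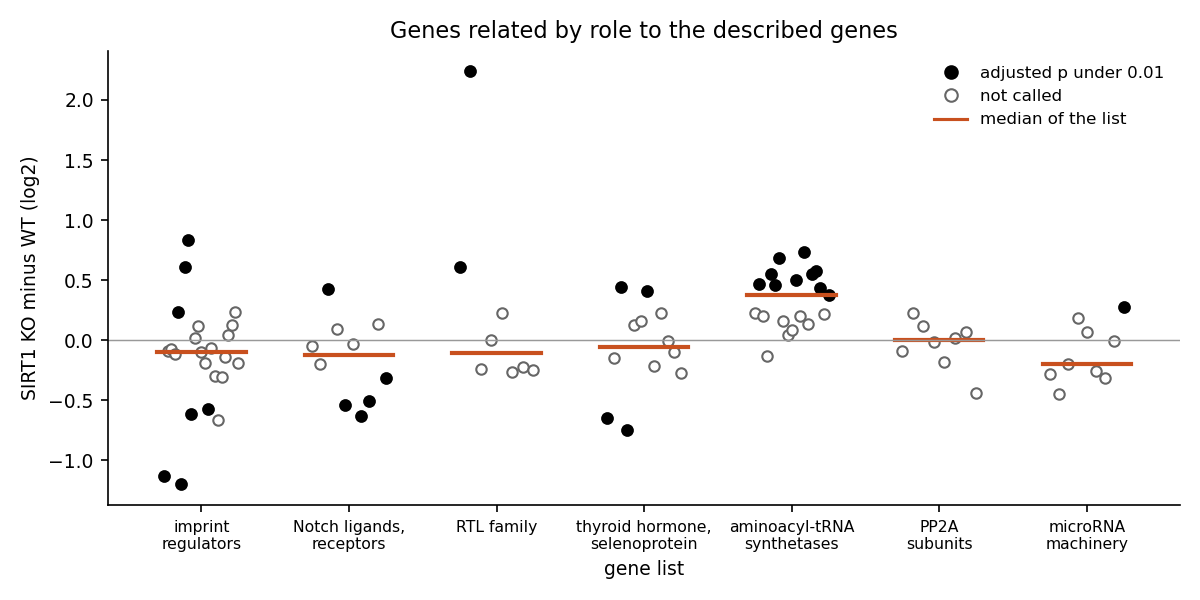
Log2 difference, SIRT1 KO minus WT (vertical axis), of each tested gene of 7 lists related by role to the described genes, with filled points for genes called at an adjusted p under 0.01 and a bar for the median of each list. The aminoacyl-tRNA synthetases sit highest, at a median of 0.37, and the medians of the other lists lie between -0.20 and 0.0033.

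Relatives of the described proteins were counted next, beside shares over all tested genes of 8.12% lower and 8.47% higher. Of the 19 cytosolic aminoacyl-tRNA synthetases other than Wars, 10 were higher and none was lower in limma (16 higher and 1 lower at an unadjusted p under 0.05), at a median difference of 0.37. Nars and Gars, for asparagine and glycine, rose by 0.73 and 0.68 (adjusted p = 4.85e-05 and 5.2e-05, limma), and Cars and Rars, for cysteine and arginine, rose by 0.47 and 0.55. The value of Wars, 0.34, lay near that median. Of 8 other PP2A subunits, none was lower or higher in limma (2 lower and 2 higher at an unadjusted p under 0.05), at a median of 0.0033, with Ppp2r5c at 0.0053. The values of Ppp2cb, Ppp2r5a, Ppp2r5e and Ppp2r1a were 0.23, -0.18, -0.44 and 0.12. Ppp2r5a was called lower under quantile normalization and without the second WT library (adjusted p = 0.00152 and 0.00174, limma).

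Of 10 tested Notch ligands and receptors, the relatives of Dlk1, 4 were lower and 1 was higher, against 8.12% and 8.47% of all tested genes. The log2 differences were -0.63 for Notch1, -0.51 for Notch2 and -0.32 for Notch4, all receptors, and -0.54 for the ligand Jag1 (adjusted p at most 0.00294, limma). Without the first SIRT1 KO library Notch2 was not called (adjusted p = 0.012), and without the third WT library or the second or the third KO library Notch4 was not called (adjusted p from 0.0122 to 0.0216). Of 8 tested retrotransposon-derived relatives of Rtl1, none was lower in limma (4 lower at an unadjusted p under 0.05) and 2 were higher. Peg10, which lies in an imprinted cluster of its own, rose by 2.24 (adjusted p = 0.000237, limma). Ldoc1 rose by 0.61 (adjusted p = 0.00355, limma), but was not called without the first or the third KO library (adjusted p = 0.0198 and 0.0214, limma). The values of Rtl10 and Rtl6 were -0.24 and 0.22, not called.

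Of 12 tested genes of thyroid hormone action and selenoprotein synthesis, the setting of Dio3, 2 were lower and 2 higher. The shares over all tested genes, here and for the microRNA machinery below, were 8.12% lower and 8.47% higher. Rxra, a nuclear receptor, and Eefsec, the selenocysteine elongation factor, were lower, at differences of -0.75 and -0.65 (adjusted p = 2.19e-05 and 9.74e-05, limma). Pstk and Sephs2, which act in selenocysteine synthesis, rose by 0.44 and 0.41 (adjusted p = 0.000944 and 0.0025, limma), and Sephs2 was not called without the second or the third KO library (adjusted p = 0.0176 and 0.0179). Of 9 genes of the microRNA machinery, none was lower in limma (3 lower at an unadjusted p under 0.05), and Xpo5, the export factor for microRNA precursors, was higher by 0.28 (adjusted p = 0.00191, limma). Xpo5 was not called without the first WT library or the second or the third KO library (adjusted p = 0.0113, 0.0197 and 0.0166). Dicer1, Drosha and Ago1 were at -0.26, -0.32 and -0.28, and without the second WT library Dicer1 and Ago1 were called lower (adjusted p = 0.00696 and 0.00941, limma).

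The 5 genes outside the interval whose 6 values, each centred on its WT mean, lay nearest to those of Meg3 were Gm27000, Snrpn, Kcnq1ot1, Gm38393 and Gm24598, at Euclidean distances of 3.11, 3.61, 3.98, 4.24 and 5.54. Within the interval, Mirg lay at 0.279, Rtl1 at 0.450 and Rian at 0.882. Snrpn, an imprinted gene on chromosome 7, encodes a spliceosomal protein. Its values were 13.92, 13.86 and 13.91 across the WT libraries, against 7.98, 8.33 and 8.33 across the KO libraries, a log2 difference of -5.68. Kcnq1ot1 is a noncoding RNA of another imprinted domain on chromosome 7. Its values were 14.70, 15.39 and 14.58 across the WT libraries, against 9.16, 9.54 and 9.53 across the KO libraries, a log2 difference of -5.48. Both had their lowest KO value in the first KO library, where Meg3 had its highest.

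Sirt1 itself averaged 13.74 ± 0.042 across KO libraries against 15.51 ± 0.026 across WT libraries (SD), and 29.2% of its level remained, which does not show the part of the gene that was targeted. Libraries of 1 genotype correlated at 0.998 or more. The 8 pluripotency markers were summed to a log2 level of 20.97 to 21.03 in WT and 20.98 to 21.02 in SIRT1 KO libraries, with Klf4 called lower (-0.34). For other cell types, each list is given by its summed log2 level, by its called genes and by the sum without the gene that moved most, a sum added after seeing the data. The 11 fibroblast markers, with Postn, Dcn, S100a4, Twist2 and Prrx1 at 0 in all libraries, summed to 13.44 to 13.61 in WT and 12.59 to 12.78 in SIRT1 KO libraries. Of 4 tested, Col5a1 (-0.96) and Thy1 (-0.56) were lower, and without Col5a1 the sums were 10.86 to 11.06 and 10.38 to 10.51. The 7 trophoblast markers summed to 14.47 to 14.56 and 15.27 to 15.36, and of 6 tested, Tfap2c (-0.59) was lower and Krt8 (2.36) and Eomes (0.48) were higher. Without Krt8 these sums overlapped, at 14.19 to 14.27 and 14.19 to 14.29. The 7 primitive endoderm markers summed to 10.85 to 11.06 and 11.15 to 11.34, and of 7 tested, Gata6 (-0.66), Dab2 (-0.67) and Pdgfra (-0.55) were lower and Sox7 (0.96) was higher. Without Sox7 the order of the sums turned, at 10.25 to 10.30 in WT and 9.92 to 10.07 in SIRT1 KO libraries. The 7 neural markers, with Dcx at 0, summed to 15.73 to 15.98 and 16.13 to 16.14, and of 5 tested, Sox1 (-0.62) was lower and Nes (0.87) higher. Without Nes the sums overlapped, at 15.39 to 15.62 and 15.55 to 15.59. All these calls are from limma at an adjusted p under 0.01, which called 8.12% of all tested genes lower and 8.47% higher. The part of these shifts in the values of the domain was not tested.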

How the data were processed

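The deposited table holds log2 normalized counts per gene. Per the labels and the methods, the authors aligned reads to mm10 with STAR, took counts from featureCounts and scaled them in DESeq2. The log2 transformation and the strand setting are not given in the sources used here. The labels describe poly(A)-enriched libraries, the methods ribosomal RNA depletion. The design text states a depth of about 520000000 reads for each library, but the table holds no counts, so no interval from counts was given.

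Positions came from GENCODE vM21 (GRCm38) by gene name, of which 53644 matched 1 gene. Genotypes were compared over 26571 genes with limma 3.58.1 (R 4.3.3, empirical Bayes with trend, two-sided, Benjamini-Hochberg, called at an adjusted p under 0.01). The fit was also run on simulated data with independent normal noise of each gene's SD and added shifts. The simulation did not imitate the unequal spread of drawn-together rows, so it says nothing of their p-values. p-values measure the spread between 3 libraries of 1 line per genotype.

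The described genes and all lists were chosen with earlier results of these data known. Named were the 10 genes, Sirt1, the 12 other tested genes of the interval with the highest mean, the called and nearest neighbours, 4 genes per list with the smallest adjusted p plus 8 preset imprint regulators, and the 5 genes outside the interval nearest to Meg3. Deviations of same-numbered WT and SIRT1 KO libraries correlated at 0.24, 0.15 and 0.32, and those of the other pairs at -0.3 to 0.084. The library names state no pairing, and these weak correlations do not settle whether the replicate numbers pair the libraries. The calls and p-values reported as main results are from the fit without pairing. A possible pairing by replicate number entered only as the block among the alternatives. Alternatives were other filters, pseudocounts and scalings, limma without trend, the block and leaving out each library.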

Additional observations from a re-analysis of the deposited data

How the results depend on the processing

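Meg3, Rtl1, Rian and Mirg stayed between -8.36 and -7.14 on the log2 scale under all 14 alternatives, and no described gene except Ppp2r5c, which ranged from -0.050 to 0.062, changed direction. Of 52 other named genes, 36 kept their call and direction under every alternative. With the replicate numbers as a block, 2079 genes were lower and 2041 higher and 54 other genes of the interval were lower, and of 72 results only the call of Dnmt1 changed. With a minimum mean of 100, which lower genes passed largely through their WT values, 28 interval genes were lower, a count that says nothing of stability. Leaving out 1 library gave 1283 to 2669 lower and 1202 to 2794 higher genes over all tested genes, the lowest counts without the second and the third SIRT1 KO libraries. It gave 50 to 55 lower and 0 to 2 higher other genes of the interval, 1 to 3 higher neighbours, and 4 to 8 lower and 2 to 4 higher imprint regulators. Median centring called 3099 genes higher and 1718 lower, so that 64.3% of calls were higher against 51.1%, and called 1 other gene of the interval higher. A pseudocount of 100 and quantile normalization each left 1 higher neighbour, and the latter called 10 genes of the related lists lower against the 6 reported. These related-gene counts were added after seeing the data. Directions reversed for 4 genes. Dync1h1 was at -0.074 under quantile normalization and from -0.040 to 0.15 when 1 library was left out. Trim28 was at -0.034 and from -0.0051 to 0.081 likewise, and Slc25a47 was from -0.056 to 0.11 when 1 library was left out. Gm6988, from -0.016 to 0.63, was called higher without WT replicate 1. The causes were not tested. Values of genes with few reads are drawn together, which limits the differences and the KO spread of the small RNA genes. It can also limit the differences of Dlk1, Dio3 and Begain.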
